A study of Mus musculus with 12 samples.

Results

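The genes described here are the long noncoding RNA (lncRNA) genes that C2C12 cells expressed. C2C12 is a mouse myoblast line that stops dividing and fuses into myotubes when serum is withdrawn. The genes were chosen by their measured level: a gene was taken when the deposited table lists its biotype as lncRNA and its mean reached 5 TPM (a level per transcript length) in at least 1 of the 4 groups. H19, Meg3, Rian and Mirg were left out by name. Of 32889 lncRNA gene IDs among 78275 gene IDs in all, 11688 had any count and 550 (1.67%) met the rule. The groups were induced cells with Zfp143 siRNA, induced cells with control siRNA, uninduced cells with Zfp143 siRNA and uninduced cells with control siRNA, with 3 libraries in each. All cells were wild-type C2C12 transfected in medium with 10% fetal bovine serum, the control siRNA being non-targeting. Uninduced cells were harvested 24 hours after transfection, and induced cells were kept in 1% horse serum until day 5. Zfp143 encodes the zinc finger transcription factor ZNF143.

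The target of the siRNA checks the labels. In induced cells Zfp143 stood at 11.1, 9.87 and 12.8 TPM with Zfp143 siRNA and at 11.2, 11.5 and 11.5 TPM with control siRNA, ranges that overlapped (log2 fold change -0.18 ± 0.18 (SE), edgeR adjusted p = 0.65). In uninduced cells it stood at 4.84, 4.92 and 4.19 TPM with Zfp143 siRNA and at 12.2, 14.3 and 13 TPM with control siRNA, ranges that did not overlap (log2 fold change -1.41 ± 0.18, adjusted p = 6.1e-05). A lower Zfp143 transcript was thus measured only in the uninduced comparison. In the induced libraries labelled knockdown the groups are named by the siRNA the cells had received, and every direction given for them is drawn from that label.

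A lncRNA is transcribed and often spliced and polyadenylated like a messenger RNA but has no long open reading frame. Some act as RNA: Xist coats the inactive X chromosome and Neat1 builds the nuclear bodies called paraspeckles. Others are host genes, whose introns or exons are cut into small nucleolar RNAs (snoRNAs), which guide the chemical modification of ribosomal RNA, or into microRNAs, and many lie on the opposite strand of a protein-coding gene. In muscle, Lincmd1 (linc-MD1) is known as a transcript of differentiating myoblasts that spans the precursors of miR-206 and miR-133b.

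The libraries held 13520906 to 19068323 estimated counts, and 1.34 ± 0.10% of counts (SD, n = 3) fell on the 550 genes in induced Zfp143 siRNA cells, 1.28 ± 0.05% in induced control cells, 1.49 ± 0.06% in uninduced Zfp143 siRNA cells and 1.68 ± 0.22% in uninduced control cells. Myotube markers (Myog, Myh3, Acta1, Ckm and Mymk) summed to between 2300 and 3000 TPM in induced Zfp143 siRNA cells and between 6710 and 7530 TPM in induced control cells, against 3.27 to 3.9 TPM in uninduced Zfp143 siRNA cells and 2.91 to 4.17 TPM in uninduced control cells. All 4 myoblast markers were present in every library. Epcam, Lep and Snap25 were at 0 in all 12 libraries, but other genes of their lists were not. The epithelial list (Epcam, Cdh1 and Krt8) reached a sum of 8.42 TPM, in induced control cells. The neuronal list (Tubb3, Snap25 and Stmn2) reached 15.4 TPM, in uninduced Zfp143 siRNA cells. The leukocyte list (Ptprc, Cd14 and Csf1r) reached 33.4 TPM, in induced Zfp143 siRNA cells, mostly from Cd14. The fibroblast list (Pdgfra, Dcn and Col1a1) summed to 509 to 663 TPM in induced Zfp143 siRNA cells, 834 to 920 TPM in induced control cells, 23.6 to 27.3 TPM in uninduced Zfp143 siRNA cells and 21.4 to 24.1 TPM in uninduced control cells; its part in the changes of induction was not tested. A pair of libraries stood apart from their group by the share of counts on mitochondrial genes. It was 1.95% in induced Zfp143 siRNA replicate 1, with 3.44% and 3.47% in the other replicates, and 6.02% in uninduced control replicate 3, with 2.63% and 2.90% in the others. The labels do not state whether the libraries of a group are separate cultures, so the tests measure the spread between libraries, which may be technical. In bulk RNA, fewer cells of a type and less RNA per cell cannot be told apart.

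Several features of the measurement bear on the values below. The reads carry no strand, so reads from a lncRNA and from a gene on the opposite strand cannot be told apart. The authors' quantification splits reads that match several transcripts, and 427 of the 550 genes had a count that was not a whole number in at least 1 library; 360 had one in 6 or more. Levels are given in TPM and changes as log2 fold changes of TMM-scaled counts, and these scales are offset: over all tested genes with at least 1 TPM in both groups the log2 ratio of TPM lay above the log2 fold change by a median of 0.41 for induction with control siRNA and 0.63 with Zfp143 siRNA, and by -0.1 and 0.12 for the siRNA in uninduced and induced cells. Calls rest on the counts. Among the 550, 5 genes called for induction with control siRNA and 17 with Zfp143 siRNA moved the other way in TPM, Hoxa11os, Norad and Rab10os among them.

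The set runs from a few abundant RNAs to many near the threshold. Of the 550, 32 reached 100 TPM in a group and 251 stayed under 10 TPM, with a median of 11.1 TPM in the group where the gene was highest. Only 86 had a name other than a Gm or Rik clone symbol, 383 being Gm genes and 76 Rik genes, and 5 had no symbol. A level of 5 TPM was reached in all 4 groups by 204 genes, in 3 groups by 73, in 2 by 160 and in 1 by 113. The highest mean was in induced Zfp143 siRNA cells for 230 genes, in induced control cells for 146, in uninduced Zfp143 siRNA cells for 98 and in uninduced control cells for 76. The median effective length was 869 bases, against 2523 bases for the 10354 protein-coding genes that reach the same level. Just inside the threshold were Gm65457, Gm59022 and Gm12406, at 5.009, 5.011 and 5.019 TPM in their highest group, and just outside were Gm57475, Gm48604 and Gm56741, at 4.979, 4.979 and 4.971 TPM.

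The 10 most abundant members held 51.8% of the set's TPM in induced Zfp143 siRNA cells, 52.1% in induced control cells, 67.2% in uninduced Zfp143 siRNA cells and 68.2% in uninduced control cells. The summed TPM of the set was 1.93 ± 0.041% of all TPM in induced Zfp143 siRNA cells, 1.86 ± 0.079% in induced control cells, 2.43 ± 0.038% in uninduced Zfp143 siRNA cells and 2.50 ± 0.21% in uninduced control cells (SD, n = 3 each). The most abundant, Gm58349 (ENSMUSG00000121779.1), had 2957, 3102 and 2672 TPM in induced Zfp143 siRNA cells and 2732, 2394 and 2545 TPM in induced control cells. It had 4853, 4912 and 5045 TPM in uninduced Zfp143 siRNA cells and 5911, 5815 and 3479 TPM in uninduced control cells. The induced and uninduced groups did not overlap with either siRNA, and the change of induction was -1.45 with control siRNA (adjusted p = 2.2e-07). Gm65298, the second, averaged 2354 ± 540.5 TPM in induced Zfp143 siRNA cells, 2310 ± 241 TPM in induced control cells, 4434 ± 204 TPM in uninduced Zfp143 siRNA cells and 4398 ± 747 TPM in uninduced control cells, also lower with induction (log2 fold change -1.42 ± 0.25 (SE), adjusted p = 1.5e-04). Both had counts that were not whole in all 12 libraries, so part of their reads was shared with other transcripts. Of the other 8, Malat1, Zfas1, 2410006H16Rik, 1110038B12Rik, Gm10076, Gm61310, Neat1 and Snhg1, 6 fell with induction in both siRNA groups, and Malat1 and Neat1 are described with the nuclear RNAs.

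Of the 550 genes, 536 had counts enough for the test; the 14 others had effective lengths of only 40 to 148 bases, where a high TPM rests on few counts. A gene is called when its adjusted p is under 0.05 over all 15030 tested genes. Since a gene could enter the set through the group where it was high, shares called within it are descriptions, and they are given also for the 386 tested members that average 5 TPM over all 12 libraries.

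With Zfp143 siRNA in uninduced cells 110 members (20.5%) were called higher and 59 (11%) lower, against 15.4% and 17.1% of all tested genes. Among the 386 it was 21% and 12.4%, and among protein-coding genes of the same level 14.7% and 20.4%. The median log2 fold change was 0.09 for the members and -0.04 for all tested genes. Without uninduced Zfp143 siRNA replicate 3 the lower members were 39. After induction the siRNA left 15 members (2.8%) higher and 26 (4.85%) lower, against 3.73% and 5.77% of all genes. These counts rest on few libraries: leaving out 1 library gave 7 to 21 higher (7 without induced control replicate 2 or 3, 9 without induced control replicate 1 or induced Zfp143 siRNA replicate 2 or 3) and 16 to 31 lower (16 without induced control replicate 1 or 2). With libraries scaled by their size alone the calls were 20 higher and 18 lower. Induction with control siRNA raised 191 members (35.6%) and lowered 140 (26.1%), against 33.2% and 30.9% of all genes, and with Zfp143 siRNA 188 (35.1%) rose and 145 (27.1%) fell, against 36% and 30.1%. The interaction asks whether the response to the siRNA differed between the states, as induced minus uninduced. The states also differed in serum and time of harvest, and a lower Zfp143 transcript was measured only in uninduced cells. The interaction cannot tell these differences apart. It was higher for 31 members (5.78%) and lower for 84 (15.7%), against 10.6% and 11.8% of all genes; the higher members were 19 without induced control replicate 1 and 20 without induced Zfp143 siRNA replicate 3 or uninduced control replicate 2. The error was wider for these genes than for protein-coding ones: the median SE of the log2 fold change for the siRNA in uninduced cells was 0.262, against 0.159 for protein-coding genes of the same level.

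**Figure D1:**
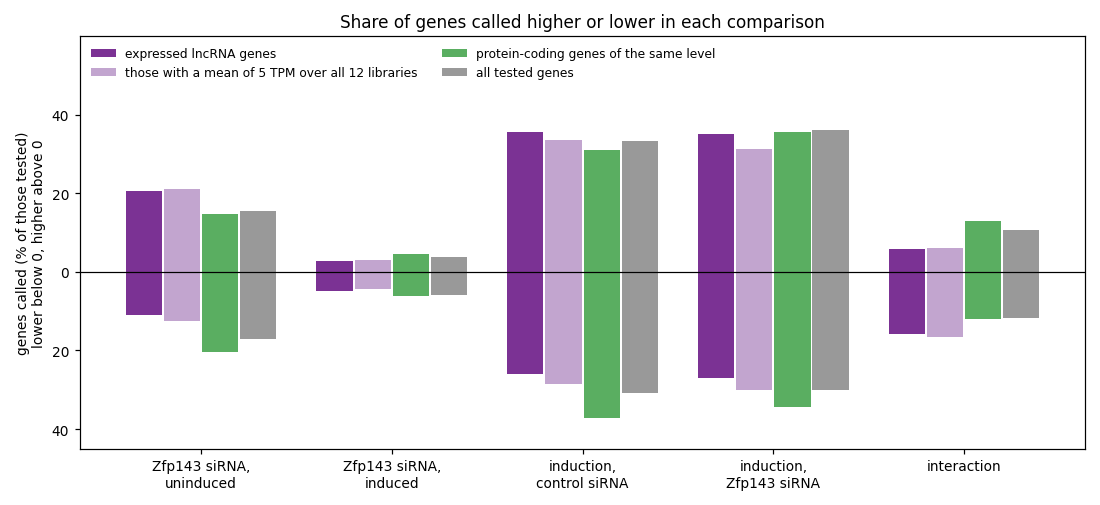
Share of tested genes called higher (above 0) and lower (below 0) in each comparison, in percent, for the expressed lncRNA genes, those averaging 5 TPM over all libraries, protein-coding genes of the same level and all tested genes. For the siRNA in uninduced cells the lncRNA bars read 20.5% higher and 11% lower, and for the interaction 5.78% higher and 15.7% lower.

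The responses to induction with either siRNA come from separate libraries and shared most of their calls. Members higher in both were 139, which is 72.8% of those higher with control siRNA and 73.9% of those higher with Zfp143 siRNA; for all genes these shares were 77.5% and 71.6%. Members lower in both were 98 (70% and 67.6%; 72.3% and 74.1% for all genes). Opposite calls were made for 10, of which 7 were higher with control siRNA and lower with Zfp143 siRNA (3.66% and 4.83% of those lists; 3.12% and 3.45% for all genes) and 3 the reverse (2.14% and 1.6%; 3.68% and 3.16% for all genes), near the shares of all genes. The responses to the siRNA in the separate libraries of the uninduced and induced cells shared 14 called members. Higher in both was 1 member (0.909% of the uninduced list and 6.67% of the induced one; 5.24% and 21.6% for all genes), and 4 were lower in both (6.78% and 15.4%; 4.47% and 13.3% for all genes). Higher in uninduced and lower in induced cells were 7 members (6.36% and 26.9%; 10.2% and 27.1% for all genes), and 2 were lower in uninduced and higher in induced cells (3.39% and 13.3%; 4% and 18.4% for all genes). The members' shares rest on 1 to 7 genes each.

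**Figure D2:**
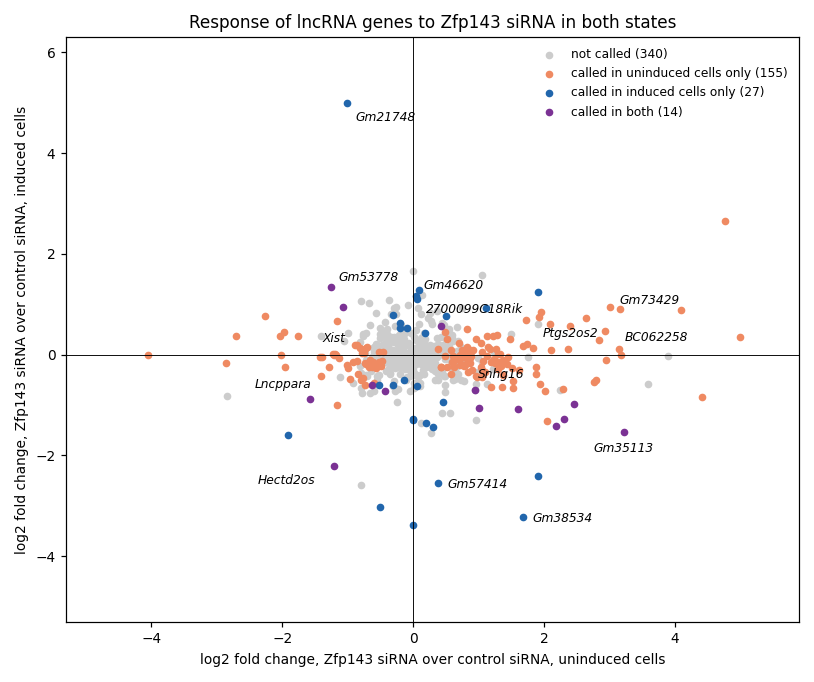
Log2 fold change of Zfp143 siRNA over control siRNA in uninduced cells (x axis) and in induced cells (y axis) for the 536 tested lncRNA genes, coloured by where a gene was called. Values beyond 5 are drawn at 5 (2 genes, Gm21748 and Gm62060). Called genes lie mostly along the x axis: 155 were called in uninduced cells only, 27 in induced cells only and 14 in both.

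Genes that host snoRNAs fell together when the cells were induced. Hosts were taken by symbol alone, so a member with another symbol is not counted here even if it hosts snoRNAs. The symbols gave 18 hosts (Gas5, Zfas1, Dancr, Epb41l4aos and 14 Snhg genes). Of these, 12 were lower and 1 higher after induction with control siRNA, and the same numbers with Zfp143 siRNA. Of all tested genes 30.9% and 30.1% were lower and 33.2% and 36% higher. The median log2 fold change was -1.12 with control siRNA and -1.75 with Zfp143 siRNA, against 0.03 and 0.10 over all tested genes. Such genes are known to carry a 5′ terminal oligopyrimidine (TOP) start like the ribosomal protein genes, that is, a transcript that opens with a C and a run of pyrimidines, and their spliced RNAs are often degraded by nonsense-mediated decay once the snoRNAs have been released. The windows below show 30 bases before and 40 after the annotated start of hosts and of 2 abundant members whose symbols are not on the list. They come from RefSeq on GRCm38.p6, 5′ to 3′ on the gene's strand, with the pyrimidine run nearest the start in capitals. They are printed to show what such starts look like, in hosts that fell and in Snhg18, which rose.
Snhg12, chr4:132308648-132308717, plus strand: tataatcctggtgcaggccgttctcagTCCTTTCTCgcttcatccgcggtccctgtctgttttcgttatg
Snhg8, chr3:123508297-123508366, minus strand: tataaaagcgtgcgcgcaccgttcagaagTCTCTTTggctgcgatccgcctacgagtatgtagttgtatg
Gas5, chr1:161035136-161035205, plus strand: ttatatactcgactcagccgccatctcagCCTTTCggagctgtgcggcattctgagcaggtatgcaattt
Snhg18, chr15:32244623-32244692, minus strand: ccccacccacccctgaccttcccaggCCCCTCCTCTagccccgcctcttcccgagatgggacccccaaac
Snhg1, chr19:8723457-8723526, plus strand: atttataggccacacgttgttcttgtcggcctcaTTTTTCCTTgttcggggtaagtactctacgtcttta
Snhg16, chr11:116671630-116671699, plus strand: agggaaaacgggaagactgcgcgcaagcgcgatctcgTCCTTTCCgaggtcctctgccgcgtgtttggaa
Snhg5, chr9:88522858-88522927, minus strand: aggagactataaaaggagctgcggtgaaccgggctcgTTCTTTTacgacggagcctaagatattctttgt
2410006H16Rik, chr11:62602847-62602916, plus strand: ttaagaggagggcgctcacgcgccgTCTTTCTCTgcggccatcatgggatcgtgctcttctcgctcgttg
1110038B12Rik, chr17:34952429-34952498, minus strand: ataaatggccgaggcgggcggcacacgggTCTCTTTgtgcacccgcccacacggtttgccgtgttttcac

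Counting a TOP-like start as a C followed by at least 4 pyrimidines that begins within 5 bases of the annotated start, 6 of the 17 host promoters in RefSeq held one (those of 15 of the 18 hosts): Gas5, Snhg8 and Snhg12, which fell on induction, Snhg18, which rose, and Snhg3 and Snhg7, which passed the test of induction with neither siRNA. The rule was met by 27.2% of the 191 promoters of all members and 18.3% of 32851 mouse promoters. In the windows of Snhg1, Snhg16 and Snhg5 the run begins 5 to 8 bases after the annotated start and did not meet this rule. A match is a description of these letters, not a test of function. The 2 members shown whose symbols are not on the host list also fell on induction with control siRNA. The log2 fold change was -2.64 ± 0.18 (SE) for 2410006H16Rik (adjusted p = 1.1e-08) and -2.65 ± 0.13 (SE) for 1110038B12Rik (adjusted p = 2.0e-10). Whether they host snoRNAs was not looked up. In uninduced cells 1110038B12Rik was called higher with Zfp143 siRNA (log2 fold change 0.37 ± 0.12 (SE), adjusted p = 0.031). The call on 1110038B12Rik was lost without any 1 of uninduced Zfp143 siRNA replicates 1 and 3 and uninduced control siRNA replicates 1 and 2 (adjusted p between 0.057 and 0.14).

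Snhg12 (ENSMUSG00000086290.12) shows the fall on induction that was called in 12 of the 18 hosts. The rise of Snhg12 with Zfp143 siRNA in uninduced cells was called in 6 of the 18, itself included. It had 41.6, 41.4 and 39.1 TPM in induced Zfp143 siRNA cells, 53.1, 55.2 and 55.4 TPM in induced control cells, 324, 338 and 338 TPM in uninduced Zfp143 siRNA cells and 229, 228 and 216 TPM in uninduced control cells. No group overlapped with another. Induction lowered it by more with Zfp143 siRNA (log2 fold change -3.50 ± 0.14 (SE), adjusted p = 3.8e-11) than with control siRNA (log2 fold change -2.31 ± 0.14 (SE), adjusted p = 1.8e-09), and in uninduced cells it was higher with Zfp143 siRNA (log2 fold change 0.85 ± 0.13 (SE), adjusted p = 2.6e-04). In induced cells the log2 fold change for the siRNA was -0.34 ± 0.14 (SE) (adjusted p = 0.17), and the interaction was -1.19 ± 0.19 (SE) (adjusted p = 5.5e-04). Zfas1, the most abundant host and a neighbour of Znfx1, had 289.5, 405 and 398 TPM in induced Zfp143 siRNA cells and 469, 407 and 424 TPM in induced control cells. In uninduced cells it had 1723, 1759 and 1682 TPM with Zfp143 siRNA and 1555, 1546 and 1932 TPM with control siRNA. Both induced groups lay below both uninduced groups, and the fold change of induction was -2.31 ± 0.20 (SE) with control siRNA (adjusted p = 1.3e-07). Snhg1 had a mean of 73.2 ± 12.97 TPM in induced Zfp143 siRNA cells, 75.8 ± 6.299 TPM in induced control cells, 527 ± 16.5 TPM in uninduced Zfp143 siRNA cells and 479 ± 86.9 TPM in uninduced control cells (SD, n = 3), the largest decrease among the hosts with control siRNA (log2 fold change -2.73 ± 0.22 (SE), adjusted p = 9.2e-08). Gas5, named for its rise in growth-arrested fibroblasts, averaged 37.5 ± 3.04 TPM in induced Zfp143 siRNA cells, 34.4 ± 2.55 TPM in induced control cells, 133 ± 5.08 TPM in uninduced Zfp143 siRNA cells and 113 ± 8.11 TPM in uninduced control cells and was lower after 5 days of induction (log2 fold change -1.71 ± 0.17 (SE), adjusted p = 4.2e-07).

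Among the other hosts lower with induction in both siRNA groups, the log2 fold changes with control siRNA were -2.07 for Epb41l4aos, -1.99 for Snhg8, -1.69 for Snhg15, -1.59 for Dancr, -1.25 for Snhg6, -0.99 for Snhg16, -0.93 for Snhg5 and -0.69 for Snhg17. Snhg18 went the other way. It stood at 43.7, 39.8 and 30.8 TPM in induced Zfp143 siRNA cells, 44.3, 38.1 and 32.2 TPM in induced control cells, 20.1, 15.8 and 17.9 TPM in uninduced Zfp143 siRNA cells and 12.5, 8.19 and 7.47 TPM in uninduced control cells. Its induced groups lay above its uninduced groups, with a log2 fold change of 1.87 ± 0.19 (SE) with control siRNA (adjusted p = 6.3e-07) and 0.54 ± 0.18 (SE) with Zfp143 siRNA (adjusted p = 0.015). The call on Snhg18 was lost without any 1 of induced Zfp143 siRNA replicate 2 and uninduced Zfp143 siRNA replicate 2 (adjusted p between 0.081 and 0.087). Snhg3, Snhg4, Snhg7, Snhg14 and Snhg20 passed the test of induction with neither siRNA; their log2 fold changes with control siRNA lay between -0.41 and 0.02.

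In uninduced cells 6 of the 18 hosts were higher with Zfp143 siRNA and 1 lower. Of all tested genes 15.4% were higher and 17.1% lower. The median log2 fold change of the hosts was 0.27, against -0.04 over all tested genes. The higher ones were Snhg18 (log2 fold change 1.18 ± 0.19 (SE), adjusted p = 3.8e-04), Snhg6 (log2 fold change 0.92 ± 0.14 (SE), adjusted p = 2.5e-04), Snhg16 (log2 fold change 0.87 ± 0.12 (SE), adjusted p = 8.7e-05), Snhg12, Snhg15 (log2 fold change 0.59 ± 0.12 (SE), adjusted p = 0.0017) and Gas5 (log2 fold change 0.49 ± 0.16 (SE), adjusted p = 0.032). Snhg16 had 65.5, 72.4 and 71.3 TPM with Zfp143 siRNA and 36.0, 32.7 and 31.7 TPM with control siRNA, and Snhg6 had 88.3, 82.2 and 88.1 TPM with Zfp143 siRNA and 56.8, 53.6 and 50.8 TPM with control siRNA. In both the groups were far apart and their libraries close together. The call on Gas5 was lost without any 1 of uninduced Zfp143 siRNA replicates 1, 2 and 3 and uninduced control siRNA replicates 1 and 2 (adjusted p between 0.065 and 0.15). The lower one was Snhg14, the imprinted transcript that also runs antisense to Ube3a (log2 fold change -0.84 ± 0.23 (SE), adjusted p = 0.012). The call on Snhg14 was lost without uninduced Zfp143 siRNA replicate 3 (adjusted p = 0.058).

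The count of hosts depends on uninduced control replicate 3, where the mitochondrial share of counts was 6.02%. Without it 11 of the 18 hosts were higher with Zfp143 siRNA in uninduced cells and 1 lower, with a median log2 fold change of 0.59. The log2 fold changes of Zfas1, Snhg1, Snhg5, Snhg8 and Epb41l4aos, which did not pass with all libraries, were then 0.50, 0.61, 0.64, 0.95 and 0.56, with adjusted p between 0.00108 and 0.0429. What that library's composition contributes was not tested. In induced cells edgeR called 0 of the 18 hosts for the siRNA (1 at an unadjusted p under 0.05, Snhg12, and 0 by DESeq2). Few genes were called there in all, 9.49% of those tested. With all libraries the interaction was lower for 5 hosts (Snhg12, Snhg6, Snhg16, Snhg15 and Snhg18), against 11.8% of all tested genes. It was lower for 10 hosts without uninduced control replicate 3. Without it 1 host was called for the siRNA in induced cells, Snhg12 (log2 fold change -0.34, adjusted p = 0.0492).

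Proteins that assemble snoRNA particles gave the same direction on induction. Of 15 genes for the core and assembly proteins, all 15 were lower with control siRNA and 14 with Zfp143 siRNA, at a median log2 fold change of -1.54 and -1.67; of all tested genes 30.9% and 30.1% were lower. Nop56 and Nop58, core proteins of the box C/D particles, changed by -3.11 and -2.77 with control siRNA, and Dkc1, the pseudouridine synthase of the box H/ACA particles, by -2.35. In uninduced cells the siRNA lowered 5 of the 15 and raised 1, where 17.1% of all tested genes were lower and 15.4% higher: Nop56 changed by -0.92 (adjusted p = 0.0017), Nop58 by -0.74 and Gar1 by -0.48. Of 15 nonsense-mediated decay genes, 2 were higher and 2 lower with the siRNA in uninduced cells (Upf3a 0.63, Smg8 0.33, Casc3 -0.70, Smg6 -0.55), close to the shares of all genes, while 11 were lower and 2 higher on induction with control siRNA. Of 16 nuclear exosome genes, whose complex degrades nuclear RNA, 7 were lower with the siRNA in uninduced cells, against the same 17.1% of all genes, Zcchc7 the most (-0.98), and 14 were lower on induction with control siRNA.

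**Figure D3:**
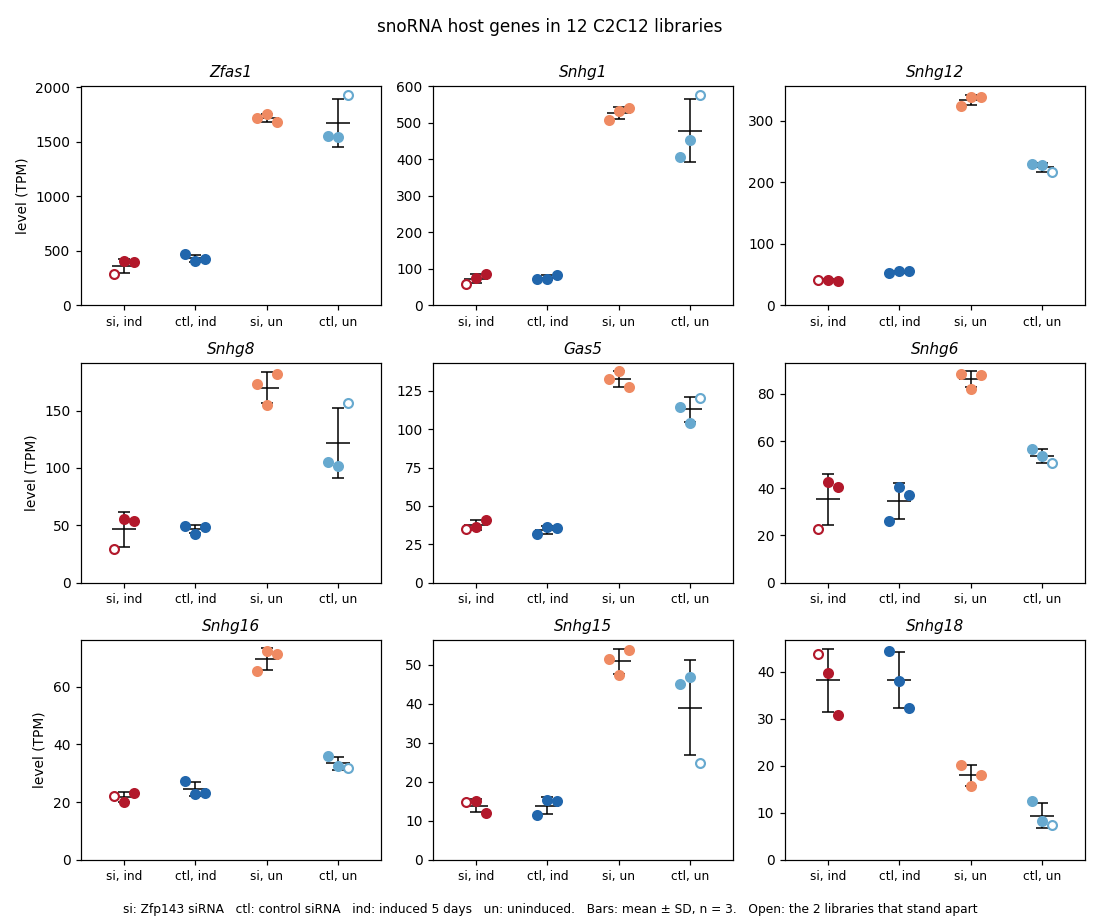
Levels of snoRNA host genes in TPM in each library, with the mean and SD of 3 libraries per group; open symbols mark induced Zfp143 siRNA replicate 1 and uninduced control replicate 3. Snhg12 sits between 39.1 and 55.4 TPM in all 6 induced libraries and between 216 and 338 TPM in the 6 uninduced ones.

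MicroRNA host genes rose on induction. Of the 8 in the set, 7 were higher and 1 lower with control siRNA, and 6 and 1 with Zfp143 siRNA, against 33.2% higher and 30.9% lower of all tested genes with control siRNA and 36% and 30.1% with Zfp143 siRNA. Their median log2 fold change was 1.34 with control siRNA and 1.22 with Zfp143 siRNA, against 0.03 and 0.10 over all tested genes. MicroRNAs pair with messenger RNAs mainly through their seed, bases 2 to 8, shown in capitals in the RefSeq mature sequences of the hosts' microRNAs. The microRNAs themselves were not measured here.
miR-206-3p (Lincmd1): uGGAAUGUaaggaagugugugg
miR-133b-3p (Lincmd1): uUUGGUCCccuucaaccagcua
miR-22-3p (Mir22hg): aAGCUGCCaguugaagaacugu
miR-100-5p (Mir100hg): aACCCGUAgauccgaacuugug
miR-125b-5p (Mir100hg): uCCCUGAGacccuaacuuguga
miR-199a-5p (Dnm3os): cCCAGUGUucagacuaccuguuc
miR-214-3p (Dnm3os): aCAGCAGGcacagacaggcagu
miR-92a-3p (Mir17hg): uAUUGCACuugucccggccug
miR-15a-5p (Dleu2): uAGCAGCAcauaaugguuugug
miR-16-5p (Dleu2): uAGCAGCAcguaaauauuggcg

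Of these 10 microRNAs only the pair from Dleu2 share a seed, AGCAGCA. The host with the largest change was Lincmd1 (ENSMUSG00000099906.3). It had 10.3, 7.61 and 8.82 TPM in induced Zfp143 siRNA cells, 11.6, 12.04 and 14.2 TPM in induced control cells, 0.0590, 0.0639 and 0.0154 TPM in uninduced Zfp143 siRNA cells and 0.0371, 0.0950 and 0.0853 TPM in uninduced control cells. Every uninduced library was below 0.1 TPM, and the change of induction was 6.83 ± 0.38 (SE) with control siRNA (adjusted p = 1.6e-11) and 6.77 ± 0.45 (SE) with Zfp143 siRNA (adjusted p = 5.0e-11). In induced cells it was lower with Zfp143 siRNA, and the groups' levels did not overlap (log2 fold change -0.59 ± 0.17 (SE), adjusted p = 0.038). The call on Lincmd1 was lost in 8 of the 12 fits that left out 1 library (adjusted p between 0.05 and 0.18). It held without uninduced Zfp143 siRNA replicates 2 and 3 and uninduced control siRNA replicates 1 and 3. Myotube markers were also lower in the same libraries, at 2300 to 3000 TPM against 6710 to 7530 TPM, and their part in this difference was not tested.

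The promoter of Lincmd1 is shown because the gene had the largest change among the hosts. It covers chr1:20669632-20669931 of GRCm38.p6, plus strand, from 250 bases before to 50 after the RefSeq start. The capitals mark CAGCTG, the E-box that MyoD prefers, searched on both strands; its first base is 16 bases after the start. The motif occurred in 33 of 191 member promoters (17.3%) and in 16.3% of all 32851 promoters of this length.
Lincmd1: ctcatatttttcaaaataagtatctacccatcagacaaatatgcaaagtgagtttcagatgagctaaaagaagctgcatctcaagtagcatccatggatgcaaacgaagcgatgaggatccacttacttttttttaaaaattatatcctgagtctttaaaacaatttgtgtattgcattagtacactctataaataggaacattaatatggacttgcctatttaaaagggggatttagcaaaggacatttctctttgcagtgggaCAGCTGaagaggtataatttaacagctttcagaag

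Dnm3os, transcribed from within Dnm3 on the opposite strand, had 18, 23.0 and 23.6 TPM in induced Zfp143 siRNA cells, 19.9, 24.8 and 28.7 TPM in induced control cells, 1.35, 0.872 and 0.943 TPM in uninduced Zfp143 siRNA cells and 2.61, 2.23 and 1.005 TPM in uninduced control cells. Induced and uninduced libraries did not overlap (log2 fold change 3.52 ± 0.23 (SE), adjusted p = 5.9e-09 with control siRNA). Mir503hg averaged 8.66 ± 1 TPM in induced Zfp143 siRNA cells, 9.15 ± 1.53 TPM in induced control cells, 1.28 ± 0.256 TPM in uninduced Zfp143 siRNA cells and 1.69 ± 0.905 TPM in uninduced control cells (SD, n = 3) and was higher on induction (log2 fold change 2.23 ± 0.27 (SE), adjusted p = 3.2e-06 with control siRNA). For Mir99ahg the change of induction with control siRNA was 1.48 ± 0.28 (SE) (adjusted p = 2.9e-04), and for Mir22hg, at 122 TPM in induced control cells the most abundant of the 8, it was 0.87 ± 0.17 (SE) (adjusted p = 3.2e-04). Dleu2 changed least (log2 fold change 0.79 ± 0.26 (SE), adjusted p = 0.017). The call on Dleu2 was lost without any 1 of induced control siRNA replicate 1 and uninduced control siRNA replicates 1 and 2 (adjusted p between 0.055 and 0.081).

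Mir100hg and Mir17hg were the hosts called for the siRNA in uninduced cells, in opposite directions. Mir100hg stood at 32.9, 35.1 and 30.2 TPM with Zfp143 siRNA and 20.2, 22.0 and 8.78 TPM with control siRNA in uninduced cells, groups that did not overlap (log2 fold change 1.17 ± 0.20 (SE), adjusted p = 5.6e-04). In induced cells it stood at 53.6, 59.6 and 60.8 TPM with Zfp143 siRNA and 50.3, 39.1 and 52.3 TPM with control siRNA, and no difference was called (adjusted p = 0.82; interaction -1.06 ± 0.28 (SE), adjusted p = 0.015). Its rise on induction was called with control siRNA (log2 fold change 1.20 ± 0.20 (SE), adjusted p = 1.0e-04) and not with Zfp143 siRNA (0.14, adjusted p = 0.55). Mir17hg, host of the miR-17 to miR-92a cluster known from dividing cells, was the host that fell on induction (log2 fold change -2.79 ± 0.20 (SE), adjusted p = 1.5e-08 with control siRNA). It had 6.57, 9.02 and 7.44 TPM in uninduced Zfp143 siRNA cells and 17.7, 20.2 and 10.4 TPM in uninduced control cells, and was lower with the siRNA there (log2 fold change -0.89 ± 0.19 (SE), adjusted p = 0.0023). In both genes uninduced control replicate 3 was the lowest of its group.

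**Figure D4:**
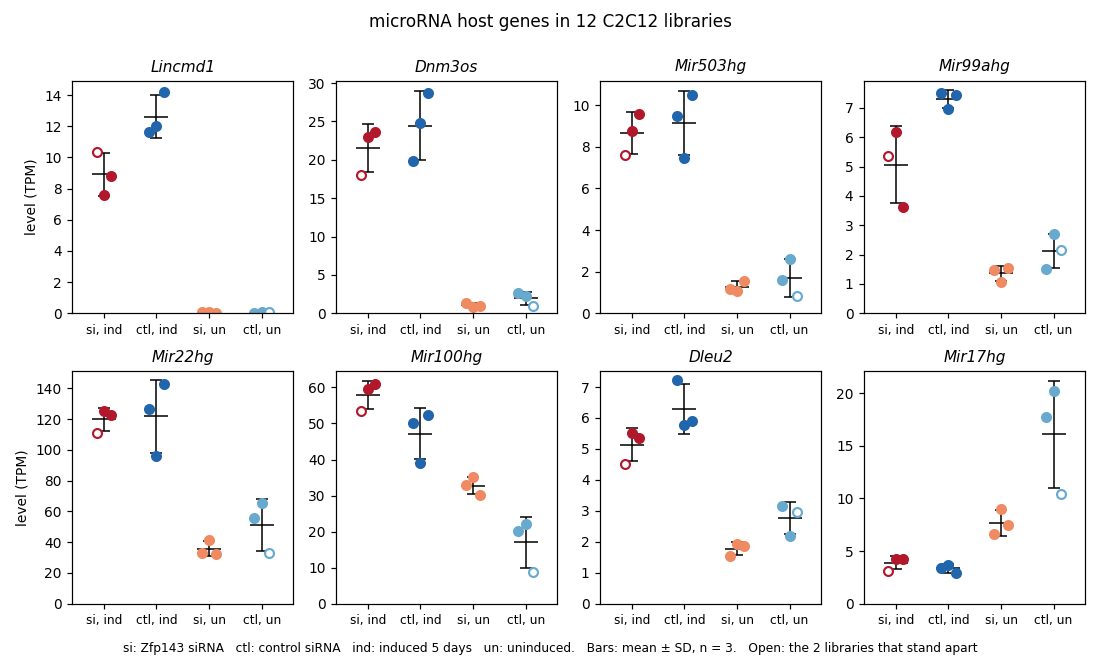
Levels of the 8 microRNA host genes in TPM in each library, with the mean and SD of 3 libraries per group; open symbols mark induced Zfp143 siRNA replicate 1 and uninduced control replicate 3. Lincmd1 lies below 0.1 TPM in all uninduced libraries and between 7.61 and 14.2 TPM in all induced ones, and Mir17hg is the only one of the 8 that is lower in induced cells.

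Of 3 nuclear RNAs, Neat1, Firre and Malat1, 2 were lower with Zfp143 siRNA in uninduced cells. On induction all 3 were higher with Zfp143 siRNA and 2 with control siRNA. Of all tested genes 17.1% were lower with the siRNA in uninduced cells, and 36% and 33.2% were higher on these inductions. Neat1 (ENSMUSG00000092274.6), the scaffold of paraspeckles, had 665, 483 and 476 TPM in induced Zfp143 siRNA cells, 472, 403 and 558 TPM in induced control cells, 94.9, 105 and 90.8 TPM in uninduced Zfp143 siRNA cells and 224, 289.5 and 98.8 TPM in uninduced control cells. In uninduced cells the groups overlapped: control replicate 3 lay inside the range of the Zfp143 siRNA libraries, while replicates 1 and 2 lay above it. The log2 fold change was -0.78 ± 0.19 (SE) (adjusted p = 0.0068), and -0.99 without control replicate 3 (adjusted p = 5.01e-05). Induction raised Neat1 with Zfp143 siRNA (log2 fold change 1.55 ± 0.19 (SE), adjusted p = 6.3e-06) and with control siRNA (log2 fold change 0.75 ± 0.19 (SE), adjusted p = 0.0031; 0.53 without that replicate, adjusted p = 0.00327). The interaction was 0.80 ± 0.27 (SE) (adjusted p = 0.046). The call on Neat1 was lost in 11 of the 12 fits that left out 1 library (adjusted p between 0.051 and 0.13). It held without uninduced control siRNA replicate 3.

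Firre, an X-linked nuclear RNA, followed Neat1. It had 35.6, 22.6 and 29.97 TPM in induced Zfp143 siRNA cells, 23.8, 22.4 and 31.6 TPM in induced control cells, 5.42, 6.302 and 5.25 TPM in uninduced Zfp143 siRNA cells and 19.6, 18.2 and 5.97 TPM in uninduced control cells. Again uninduced control replicate 3 lay within the Zfp143 siRNA range and the other 2 controls above it (log2 fold change -1.18 ± 0.19 (SE), adjusted p = 4.0e-04 for the siRNA, log2 fold change 1.64 ± 0.19 (SE), adjusted p = 3.6e-06 for induction with Zfp143 siRNA). With control siRNA the change of induction was 0.46 ± 0.19 (SE) (adjusted p = 0.045), and 0.23 without uninduced control replicate 3 (adjusted p = 0.163). The call on Firre was lost in 7 of the 12 fits that left out 1 library (adjusted p between 0.054 and 0.16). It held without induced Zfp143 siRNA replicates 1 and 2, induced control siRNA replicate 2 and uninduced control siRNA replicates 1 and 2. Malat1, an abundant RNA of nuclear speckles, had 694, 1372 and 752 TPM in uninduced Zfp143 siRNA cells and 1786, 2328 and 746 TPM in uninduced control cells. The groups overlapped, and the log2 fold change of -0.62 ± 0.26 (SE) was not called (adjusted p = 0.084); without control replicate 3 it was -0.85 (adjusted p = 0.00901). In induced cells Malat1 had 2546, 2214 and 2785 TPM with Zfp143 siRNA and 1919, 3194 and 2618 TPM with control siRNA, and its rise on induction was called with Zfp143 siRNA (log2 fold change 0.80 ± 0.26 (SE), adjusted p = 0.015). The call on Malat1 was lost without any 1 of uninduced Zfp143 siRNA replicates 1 and 3 (adjusted p between 0.069 and 0.07).

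Xist (ENSMUSG00000086503.6) was lower with Zfp143 siRNA in uninduced cells. It had 161, 140.1 and 219 TPM in induced Zfp143 siRNA cells, 121, 162 and 170.1 TPM in induced control cells, 113, 188 and 122.8 TPM in uninduced Zfp143 siRNA cells and 393, 516 and 204 TPM in uninduced control cells. The uninduced groups did not overlap, although control replicate 3 lay close to the highest Zfp143 siRNA library (log2 fold change -1.20 ± 0.23 (SE), adjusted p = 0.0012; -1.35 without control replicate 3, adjusted p = 0.000203). Induction lowered Xist with control siRNA (log2 fold change -1.59 ± 0.23 (SE), adjusted p = 2.6e-05) and the change with Zfp143 siRNA was -0.37 ± 0.23 (SE) (adjusted p = 0.16). The interaction was 1.22 ± 0.32 (SE) (adjusted p = 0.014). Ftx, which lies near Xist in the X inactivation centre, averaged between 7.88 and 8.37 TPM in the induced groups and between 8.16 and 8.26 TPM in the uninduced ones, and no comparison was called. For these RNAs the share of mitochondrial counts (6.02% in uninduced control replicate 3, 2.63% and 2.90% in the others) moved with the low library, and its part was not tested.

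Genes for proteins that work with these RNAs were lower on induction. Of 12 paraspeckle protein genes 11 were lower and 1 higher with control siRNA, opposite to Neat1, and 8 and 1 with Zfp143 siRNA; the higher one was Daxx (1.04 with control siRNA). Of all tested genes 30.9% were lower on induction with control siRNA and 30.1% with Zfp143 siRNA. With the siRNA 17.1% were lower and 15.4% higher in uninduced cells, and 3.73% were higher in induced cells. In uninduced cells the siRNA lowered Pspc1 (-0.50) and Hnrnpm (-0.41), and in induced cells it raised 2, Rbm14 (0.63) and Dazap1 (0.42). Of 10 genes for partners of Xist, 7 were lower on induction with control siRNA, and in uninduced cells the siRNA lowered Smchd1 (-0.57), Hnrnpu (-0.49) and Lbr (-0.36) and raised Rbm15 (0.61). Smchd1 keeps genes of the inactive X silent, Hnrnpu tethers Xist to chromatin, and Rbm15 belongs to the RNA methylation complex that acts on Xist.

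**Figure D5:**
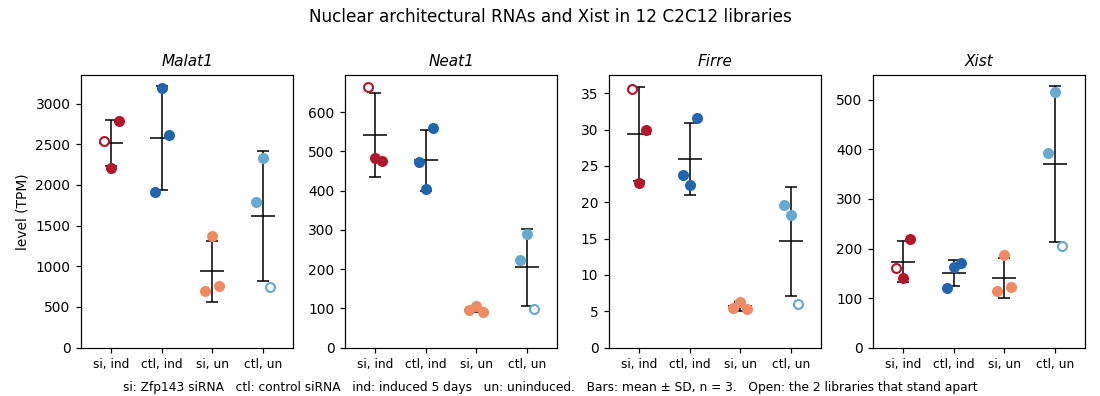
Levels of nuclear RNAs and Xist in TPM in each library, with the mean and SD of 3 libraries per group; open symbols mark induced Zfp143 siRNA replicate 1 and uninduced control replicate 3. For Neat1 the open symbol of the uninduced control group is at 98.8 TPM, inside the 90.8 to 105 TPM of the uninduced Zfp143 siRNA libraries, and the other 2 controls are at 224 and 289.5 TPM.

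The 4 members of a list named for growth or p53 (Norad, Snhg15, Chaserr and Pvt1) were all called lower on induction with Zfp143 siRNA. The name is a label, and a link of each gene to growth or p53 was not tested. Snhg15 is also counted among the snoRNA hosts. Snhg15 and Pvt1 were also lower with control siRNA. Of all tested genes 30.1% were lower with Zfp143 siRNA and 30.9% with control siRNA. Norad moved the other way in TPM, at 128 TPM in uninduced and 134 TPM in induced Zfp143 siRNA cells, so its direction differs between the scales. Pvt1, the neighbour of Myc, had 18.7, 13.5 and 17.1 TPM in induced Zfp143 siRNA cells, 20.7, 19.17 and 24.96 TPM in induced control cells, 30.3, 29.4 and 31.4 TPM in uninduced Zfp143 siRNA cells and 30.6, 33.8 and 32.2 TPM in uninduced control cells. The induced libraries were below the uninduced ones (log2 fold change -0.81 ± 0.15 (SE), adjusted p = 2.0e-04 with control siRNA, log2 fold change -1.18 ± 0.15 (SE), adjusted p = 7.3e-06 with Zfp143 siRNA). In induced cells the siRNA groups did not overlap (log2 fold change -0.51 ± 0.15 (SE), adjusted p = 0.046). The call on Pvt1 was lost in 10 of the 12 fits that left out 1 library (adjusted p between 0.055 and 0.18). It held without uninduced control siRNA replicates 1 and 3. Norad, which binds Pumilio proteins and was named for its role in genome stability, averaged 134 ± 14.1 TPM in induced Zfp143 siRNA cells, 145 ± 6.303 TPM in induced control cells, 128 ± 19.7 TPM in uninduced Zfp143 siRNA cells and 106 ± 35.0 TPM in uninduced control cells, and uninduced control replicate 3 was its lowest library. Its log2 fold change for the siRNA in uninduced cells was 0.43 ± 0.15 (SE) (adjusted p = 0.047). The call on Norad was lost in 9 of the 12 fits that left out 1 library (adjusted p between 0.053 and 0.15). It held without induced Zfp143 siRNA replicates 1 and 3 and uninduced Zfp143 siRNA replicate 1. Chaserr, which lies beside Chd2 and is known to hold back its expression, changed by -0.83 ± 0.18 (SE) on induction with Zfp143 siRNA (adjusted p = 8.6e-04) and by -0.33 ± 0.18 (SE) with control siRNA (adjusted p = 0.12).

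Among imprinted genes Peg13, expressed from the paternal allele in brain, was at 10.03, 7.87 and 9.61 TPM in induced Zfp143 siRNA cells, 8.46, 9.66 and 8.81 TPM in induced control cells, 2.22, 2.57 and 2.43 TPM in uninduced Zfp143 siRNA cells and 3.05, 2.79 and 1.21 TPM in uninduced control cells. Induced and uninduced libraries did not overlap (log2 fold change 1.55 ± 0.16 (SE), adjusted p = 9.4e-07 with control siRNA), and the siRNA made no called difference in either state. Hotair, from the HoxC cluster, averaged 9.49 ± 1.52 TPM in induced Zfp143 siRNA cells, 6.37 ± 0.829 TPM in induced control cells, 5.09 ± 0.553 TPM in uninduced Zfp143 siRNA cells and 7.30 ± 2.88 TPM in uninduced control cells and was called lower on induction with control siRNA (log2 fold change -0.53 ± 0.17 (SE), adjusted p = 0.011). The call on Hotair was lost without any 1 of induced control siRNA replicate 1 and uninduced control siRNA replicate 2 (adjusted p between 0.051 and 0.069). Hoxa11os, opposite Hoxa11, was also called lower there (log2 fold change -0.44 ± 0.18 (SE), adjusted p = 0.041), but its mean in TPM was 15.3 in induced and 14.1 in uninduced control cells, so the direction differs between the scales. The call on Hoxa11os was lost without any 1 of induced control siRNA replicates 2 and 3, uninduced Zfp143 siRNA replicates 1 and 3 and uninduced control siRNA replicate 3 (adjusted p between 0.051 and 0.14).

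Opposite-strand genes changed in both directions. Of the 19 in the set, 10 were higher and 5 lower on induction with either siRNA, and in uninduced cells the siRNA raised 5 and lowered 3. Of all tested genes 33.2% were higher and 30.9% lower on induction with control siRNA, 36% and 30.1% with Zfp143 siRNA, and 15.4% and 17.1% with the siRNA in uninduced cells, so that the shares lower were near those of all genes. Because reads carry no strand, the partner gene is given beside those described. Ptgs2os2, opposite Ptgs2 (cyclooxygenase 2), had 16.99, 16.98 and 16.2 TPM in uninduced Zfp143 siRNA cells and 3.53, 3.22 and 4.04 TPM in uninduced control cells. The groups did not overlap (log2 fold change 2.36 ± 0.25 (SE), adjusted p = 8.7e-06), and Ptgs2, at 566 TPM with Zfp143 siRNA and 251 TPM with control siRNA, changed by 1.33 (adjusted p = 0.000298). On induction with Zfp143 siRNA the gene and its partner changed by -3.40 and -3.87. In induced cells they parted: the siRNA gave 0.11 for Ptgs2os2 (adjusted p = 0.9) and -1.48 for Ptgs2 (adjusted p = 0.000262).

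Junos, opposite the AP-1 gene Jun, had 32.1, 39.0 and 36.5 TPM in induced Zfp143 siRNA cells, 33.0, 39.4 and 42.4 TPM in induced control cells, 8.39, 8.27 and 10.1 TPM in uninduced Zfp143 siRNA cells and 4.33, 4.65 and 1.76 TPM in uninduced control cells. All induced libraries were above all uninduced ones (log2 fold change 2.92 ± 0.21 (SE), adjusted p = 1.1e-08 with control siRNA, against 0.67 for Jun), and in uninduced cells the siRNA raised it (log2 fold change 1.37 ± 0.21 (SE), adjusted p = 2.5e-04, against 0.60 for Jun). Rab10os had 13.4, 12.2 and 13.4 TPM in uninduced Zfp143 siRNA cells and 7.99, 6.32 and 4.18 TPM in uninduced control cells, groups that did not overlap (log2 fold change 1.24 ± 0.15 (SE), adjusted p = 3.5e-05); for Rab10, at 158 TPM with Zfp143 siRNA and 173 TPM with control siRNA, the change was 0.01 (adjusted p = 0.97). Rab11bos1 likewise changed by 1.46 ± 0.29 (SE) (adjusted p = 0.0016) and Rab11b by 0.01 (adjusted p = 0.96), and Rab26os changed by 1.53 ± 0.35 (SE) (adjusted p = 0.0039), Rab26 being too low for the test. All 3 partners encode small GTPases of membrane traffic. In induced cells the siRNA made no called difference for Rab10os, Rab11bos1 or Rab26os, and the interaction was lower for each (-1.33, -1.51 and -2.18).

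Hectd2os was the opposite-strand gene lower with the siRNA in both states. It had 4.84, 3.995 and 4.57 TPM in induced Zfp143 siRNA cells and 15.3, 20.4 and 20.7 TPM in induced control cells. In uninduced cells it had 1.11, 1.04 and 2.701 TPM with Zfp143 siRNA and 6.33, 5.40 and 2.77 TPM with control siRNA. Neither pair of groups overlapped (log2 fold change -2.21 ± 0.27 (SE), adjusted p = 6.1e-05 in induced cells, log2 fold change -1.22 ± 0.30 (SE), adjusted p = 0.0057 in uninduced cells). Hectd2, its partner, changed by -0.46 in induced cells (adjusted p = 0.35) and by -0.94 in uninduced cells (adjusted p = 0.0044), and on induction with control siRNA it fell (-2.37) where Hectd2os rose (1.74). Srrm4os was listed at 0 in all 6 uninduced libraries and had 0.0505, 0.251 and 0.728 TPM in induced Zfp143 siRNA cells and 6.43, 6.75 and 6.81 TPM in induced control cells, groups that did not overlap (log2 fold change -3.38, adjusted p = 0.0032). With 163 counts summed over the induced control libraries it was at least 18.5-fold higher there than a floor of 3 counts per library allows in uninduced control cells; its partner Srrm4 averaged at most 0.028 TPM in a group and was too low for the test. Oip5os1 (Cyrano) had 16.9, 20.1 and 17.1 TPM in uninduced Zfp143 siRNA cells and 20.5, 25.8 and 26.3 TPM in uninduced control cells (log2 fold change -0.72 ± 0.17 (SE), adjusted p = 0.0051, against -0.47 for Oip5, adjusted p = 0.129; with the transcript length as an offset the adjusted p was 0.134 for Oip5os1). Brip1os had 36.8, 33.5 and 33.1 TPM in induced Zfp143 siRNA cells and 22.3, 22.8 and 22.2 TPM in induced control cells, groups that did not overlap (log2 fold change 0.43 ± 0.11 (SE), adjusted p = 0.02, against 1.20 for Brip1). The call on Brip1os was lost without any 1 of induced Zfp143 siRNA replicate 2 and induced control siRNA replicates 1, 2 and 3 (adjusted p between 0.056 and 0.12). For Cep83os and Zbtb11os1 the partner moved the other way on induction with control siRNA, at 1.08 against -0.72 for Cep83 and 0.58 against -1.47 for Zbtb11. The call on Zbtb11os1 was lost in 7 of the 12 fits that left out 1 library (adjusted p between 0.05 and 0.18). It held without induced Zfp143 siRNA replicates 1 and 3, induced control siRNA replicate 3, uninduced Zfp143 siRNA replicate 2 and uninduced control siRNA replicate 1. Phtf1os changed by -1.48 there, against 0.48 for Phtf1, Fam120aos by 1.33, against -0.47 for Fam120a, and Mxd4os1 by 3.56, against 2.72 for Mxd4, all called. Dlx1as and Sp3os were not called with control siRNA (0.44 and 0.40), while Dlx1 and Sp3 were lower (-1.26 and -0.62).

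Across the set, a relation to protein-coding genes could be read for 274 of the 550 from GENCODE M21, an annotation of another build that was used only for which genes neighbour each other; since the rest were unmatched, it describes those 274 alone. Exons overlapped a protein-coding gene on the opposite strand for 109, starts lay within 1000 bases and pointed away from each other for 21, and 99 had neither an overlapping nor a divergent protein-coding gene. Of 156 pairs with both genes tested, both were called on induction with control siRNA in 75, 59 of them in the same direction, and with the siRNA in uninduced cells in 27, 21 in the same direction. For the 101 tested pairs with exons overlapping on opposite strands these were 49 and 38 for induction, and 18 and 15 for the siRNA. Of all tested genes 64.1% were called on induction with control siRNA and 32.5% with the siRNA in uninduced cells. Whether pairs of unrelated genes give similar counts was not tested, so no effect of being neighbours can be read from them. Without strand, reads of one gene of such a pair can be counted for the other.

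Here and below, the largest changes with the siRNA or on induction are taken from a part of the called members. These had at least 5 TPM in the higher group and ranges that did not overlap. By that rule the largest increases with Zfp143 siRNA in uninduced cells were in clone-named genes. Gm62060 did not meet the rule and changed by more (log2 fold change 5.68 to 6.31 with 1 library left out). BC062258 had 16.4, 20.4 and 17.9 TPM with Zfp143 siRNA and 2.80, 2.37 and 1.51 TPM with control siRNA in uninduced cells. The groups were far apart (log2 fold change 3.15 ± 0.17 (SE), adjusted p = 2.7e-08), while in induced cells the levels were 1.82, 1.84 and 2.13 TPM with Zfp143 siRNA and 1.404, 1.63 and 1.86 TPM with control siRNA. Gm73429 was outside the 6 largest. It had 47.7, 54.5 and 47.4 TPM with Zfp143 siRNA and 9.27, 7.26 and 3.81 TPM with control siRNA in uninduced cells (log2 fold change 3.01 ± 0.21 (SE), adjusted p = 2.7e-07), again with no overlap, and fell on induction with Zfp143 siRNA (log2 fold change -4.99 ± 0.26 (SE), adjusted p = 3.2e-10). For neither gene was the siRNA called in induced cells (adjusted p = 0.83 and 0.11). In uninduced cells Gm57325 had 10.8, 8.01 and 13.2 TPM with Zfp143 siRNA and 0.251, 0.526 and 0.394 TPM with control siRNA (adjusted p = 3.1e-05). Gm71785 had 14.4, 26.6 and 22.6 TPM with Zfp143 siRNA and 2.04, 0.503 and 0.565 TPM with control siRNA (adjusted p = 7.1e-05). Gm72065 had 13.4, 16.6 and 11.4 TPM with Zfp143 siRNA and 1.94, 0.236 and 0.368 TPM with control siRNA (adjusted p = 4.4e-05). Gm67393 and Gm63125 changed by 3.17 and 3.16. Leaving out Gm62060, all 7 stayed below 7 TPM in every induced library, and Gm67393 was at 0 in all 6 of them: its fall on induction with Zfp143 siRNA was at least 9.20-fold on a floor of 3 counts per library.

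The largest decreases with Zfp143 siRNA in uninduced cells were in low genes, apart from Lncppara. Lncppara had 2.69, 2.51 and 2.41 TPM in uninduced Zfp143 siRNA cells and 13.62, 11.4 and 7.69 TPM in uninduced control cells, groups that did not overlap (log2 fold change -1.95 ± 0.18 (SE), adjusted p = 2.0e-06). In induced cells it had 16.9, 16.5 and 14.2 TPM with Zfp143 siRNA and 17.7, 14.8 and 20.4 TPM with control siRNA (adjusted p = 0.46), and the interaction was 1.72 ± 0.24 (SE) (adjusted p = 1.4e-04). Gm10010 was lower with the siRNA in both states (log2 fold change -1.57 ± 0.20 (SE), adjusted p = 4.1e-05 in uninduced cells, log2 fold change -0.87 ± 0.20 (SE), adjusted p = 0.01 in induced cells). The call on Gm10010 was lost without induced control siRNA replicate 2 (adjusted p = 0.073). Gm65566 had 3 counts over the uninduced Zfp143 siRNA libraries and 55 over the uninduced control libraries, a ratio of 18.2 for control over siRNA (95% counting interval 5.91 to 90.9, counting error only). Gm59180, Gm56847 and Gm72467 changed by -2.26, -2.03 and -1.98. The call on Gm59180 was lost without uninduced control siRNA replicate 2 (adjusted p = 0.065). The call on Gm56847 was lost without any 1 of uninduced Zfp143 siRNA replicates 2 and 3 and uninduced control siRNA replicates 1 and 2 (adjusted p between 0.073 and 0.12). The call on Gm72467 was lost in 9 of the 12 fits that left out 1 library (adjusted p between 0.051 and 0.12). It held without induced Zfp143 siRNA replicates 1 and 2 and induced control siRNA replicate 3.

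In induced cells the siRNA groups differed for few members, and Gm53778 was the most abundant of the largest increases. It had 109, 129 and 119 TPM in induced Zfp143 siRNA cells, 44.6, 40.7 and 45.5 TPM in induced control cells, 35.1, 45.8 and 38.9 TPM in uninduced Zfp143 siRNA cells and 114, 132 and 65.5 TPM in uninduced control cells. The siRNA groups did not overlap in either state, and the directions were opposite: 1.35 ± 0.13 (SE) in induced cells (adjusted p = 9.7e-06) and -1.26 ± 0.13 (SE) in uninduced cells (adjusted p = 7.3e-06), with an interaction of 2.61 ± 0.18 (SE) (adjusted p = 4.5e-07). Its counts were not whole in any of the 12 libraries, so its reads were shared with other transcripts. Gm21748 had 9, 9.43 and 10.2 TPM in induced Zfp143 siRNA cells and 0, 0.164 and 0 TPM in induced control cells (ratio of counts 169.1, 95% counting interval 49.2 to 1200, counting error only). Its counts summed to 339 with Zfp143 siRNA and 2.22 with control siRNA. Gm46620 (log2 fold change 1.16 ± 0.20 (SE), adjusted p = 0.0013), 2700099C18Rik (log2 fold change 1.10 ± 0.21 (SE), adjusted p = 0.0024), Serpina3h (log2 fold change 1.25, adjusted p = 0.008) and Gm14024 (log2 fold change 1.28 ± 0.37 (SE), adjusted p = 0.042) were the other largest increases. The call on Gm14024 was lost in 8 of the 12 fits that left out 1 library (adjusted p between 0.051 and 0.18). It held without uninduced Zfp143 siRNA replicates 1 and 2 and uninduced control siRNA replicates 1 and 3. Outside the naming rule, Gm42047 was the other member lower with the siRNA in uninduced cells and higher in induced cells, chosen here after its values were seen (-1.06 and 0.96).

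Srrm4os and Hectd2os, described above, were among the largest decreases with Zfp143 siRNA in induced cells. Gm38534, another, had 0.600, 0.614 and 0.662 TPM with Zfp143 siRNA and 5.25, 5.53 and 6.70 TPM with control siRNA in induced cells (log2 fold change -3.23 ± 0.41 (SE), adjusted p = 6.6e-05) and stayed at or below 0.153 TPM in all uninduced libraries. In induced cells G530011O06Riky had 4.66, 2.77 and 5.24 TPM with Zfp143 siRNA and 13.2, 16.7 and 15.2 TPM with control siRNA (log2 fold change -3.02 ± 0.43 (SE), adjusted p = 2.6e-04), and Gm57414 had 1.18, 1.95 and 1.34 TPM with Zfp143 siRNA and 8.22, 7.39 and 8.55 TPM with control siRNA (log2 fold change -2.55 ± 0.26 (SE), adjusted p = 1.4e-05). None of these 3 overlapped between siRNA groups. For G530011O06Riky the estimated counts lay further apart than the TPM, at 16.7, 15 and 26 with Zfp143 siRNA and 161, 173 and 159 with control siRNA, and with the transcript length as an offset the log2 fold change was -1.93. Gm57414 rose on induction with control siRNA (log2 fold change 2.78 ± 0.27 (SE), adjusted p = 3.5e-07) and not with Zfp143 siRNA (-0.16, adjusted p = 0.64; interaction -2.94, adjusted p = 1.0e-04). Gm46422 changed by -2.40 (adjusted p = 0.045). The call on Gm46422 was lost in 9 of the 12 fits that left out 1 library (adjusted p between 0.052 and 0.18). It held without induced Zfp143 siRNA replicate 3 and uninduced control siRNA replicates 1 and 3. Gm35113 combined a rise in uninduced cells (log2 fold change 3.22 ± 0.64 (SE), adjusted p = 4.2e-04) with a fall in induced cells (log2 fold change -1.54 ± 0.34 (SE), adjusted p = 0.007). It stood at 6.87, 9.08 and 5.94 TPM in induced Zfp143 siRNA cells, 20.4, 16.3 and 20.2 TPM in induced control cells, 3.34, 3.15 and 3.79 TPM in uninduced Zfp143 siRNA cells and 0.795, 0.417 and 0 TPM in uninduced control cells, so its range over the states was narrower with Zfp143 siRNA.

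The largest increases on induction were in lncRNA genes at or near 0 in uninduced cells. 5430431A17Rik had 37.2, 37.0 and 33.5 TPM in induced Zfp143 siRNA cells and 63.1, 43.7 and 59.99 TPM in induced control cells, against at most 0.15 TPM in any uninduced library. With no count in the uninduced control libraries it was at least 162-fold higher with control siRNA on a floor of 3 counts per library. On the same floor Gm14635 was at least 85.9-fold higher with control siRNA and 37.4-fold with Zfp143 siRNA, Gm16567 at least 43.7-fold and 36.7-fold, and 2310043L19Rik at least 20.1-fold and 8.86-fold. Gm21655 was at least 57.5-fold higher with control siRNA. Gm16567 varied widely between induced Zfp143 siRNA libraries, at 70.8, 35.1 and 8.67 TPM, against 48.0, 32.5 and 37.7 TPM in induced control cells. Serpina3h, a member of the Serpina3 family listed as lncRNA, was at least 16.4-fold higher with control siRNA. Gm60322 had 3 counts in uninduced control cells and 477 in induced control cells, a ratio of 163 (95% counting interval 55.4 to 792, counting error only).

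BB557941 was among the genes that induction brought close to 0. It had 0.492, 0.429 and 0.152 TPM in induced Zfp143 siRNA cells, 0.0861, 0.510 and 0.275 TPM in induced control cells, 5.71, 5.41 and 6.36 TPM in uninduced Zfp143 siRNA cells and 3.87, 6.01 and 5.89 TPM in uninduced control cells. Induced and uninduced libraries did not overlap, and the fall was alike in size with both siRNAs (log2 fold change -4.55 ± 0.55 (SE), adjusted p = 6.1e-07 with control siRNA, log2 fold change -4.62 ± 0.53 (SE), adjusted p = 4.6e-07 with Zfp143 siRNA; interaction -0.07 ± 0.77 (SE)). Gm32856 and Gm68045 fell by 3.73 and 2.94 on the log2 scale with control siRNA, the siRNA having lowered both in uninduced cells (-1.41 and -0.96). Gm32171 had 2 counts in induced control cells and 130 in uninduced control cells, a ratio of 63.5 for uninduced over induced (95% counting interval 17.2 to 530, counting error only).

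The binding motif of ZNF143 was rare in the searched promoters of the set and in all promoters alike. The core, spelled CCCA, 2 bases of any kind and ATGC, searched on both strands from 250 bases before to 50 after the RefSeq start, was found in 2 of 191 promoters (of 157 members) and in 1.88% of all 32851 promoters. The longer motif, spelled ACTACAA, any base and TCCC, which in a full site overlaps the core, was found in 1 of the 191 and in 0.95% of all. The 2 promoters are shown because they are the only matches among the 191; the genes lie outside the naming rule. They come from RefSeq on GRCm38.p6, plus strand, with the matches in capitals, which in 4933404O12Rik are the overlapping reverse complements of the core, starting 45 bases before the annotated start, and of the longer motif, starting 38 bases before it. In 2500002B13Rik the core starts 28 bases after the annotated start.
4933404O12Rik, chr5:136918896-136919195: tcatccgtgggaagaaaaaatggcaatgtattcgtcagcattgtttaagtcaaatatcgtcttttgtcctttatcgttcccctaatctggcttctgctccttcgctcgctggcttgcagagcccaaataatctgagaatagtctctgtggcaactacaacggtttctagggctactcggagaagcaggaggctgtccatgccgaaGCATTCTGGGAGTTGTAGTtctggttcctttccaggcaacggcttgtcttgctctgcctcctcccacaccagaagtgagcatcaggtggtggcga
2500002B13Rik, chr8:57487713-57488012: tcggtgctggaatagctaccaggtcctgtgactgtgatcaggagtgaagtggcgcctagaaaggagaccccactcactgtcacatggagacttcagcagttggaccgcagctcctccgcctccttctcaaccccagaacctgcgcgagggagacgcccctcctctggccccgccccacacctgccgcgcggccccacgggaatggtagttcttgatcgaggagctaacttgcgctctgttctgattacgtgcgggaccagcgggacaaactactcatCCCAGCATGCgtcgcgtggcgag

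The 2 genes changed in opposite directions with the siRNA in uninduced cells. 4933404O12Rik had 3.39, 4.05 and 4.18 TPM with Zfp143 siRNA and 6.32, 8.50 and 4.49 TPM with control siRNA, groups that did not overlap (log2 fold change -0.52 ± 0.14 (SE), adjusted p = 0.0094). 2500002B13Rik had 7.43, 7.27 and 5.75 TPM with Zfp143 siRNA and 3.88, 3.69 and 1.91 TPM with control siRNA, also without overlap (log2 fold change 1.25 ± 0.24 (SE), adjusted p = 0.0011). In induced cells neither was called, at adjusted p = 0.88 and 0.77. A match says only that these letters are in this window.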

How the data were processed

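Polyadenylated RNA was measured in 12 unstranded libraries. Of the 78810 lines of the deposited table, 535 were dropped because they list a gene ID again, with the same values. Per the submitters' processing notes, fastp 1.0.1, STAR 2.7.11b and Salmon were used with GRCm39; for Salmon no version, and for the genes no annotation release, is given in the sources used here. Estimated counts per gene were made by the authors and deposited unscaled. The deposited score column named scaledTPM was used as TPM, and the deposited length score gives the authors' effective length in bases. The 12 FPKM columns were not used.

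Estimated counts were rounded, genes were kept with filterByExpr (minimum count 10, minimum total 15), scaled by TMM factors, and fitted with 1 mean per group over all 12 libraries by the robust quasi-likelihood test of edgeR 4.0.16 in R 4.3.3, with 8 residual degrees of freedom. P-values were adjusted by Benjamini-Hochberg over 15030 genes. SEs come from the fit; none is given where a group has no counts. A count was taken as not whole when it differed from a whole number by over 0.0005. Sequences come from RefSeq tables on GRCm38.p6 and neighbours from GENCODE M21, not mixed with the files' build. limma 3.58.1, DESeq2 1.42.0, pandas 2.3.3 and matplotlib 3.10.9 were also used, and the fit was tested on simulated data. Alternatives were other scalings, no filter, a length offset, other tests, a replicate block, other fits and level thresholds, and each library left out.

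The members and gene lists were chosen with earlier results of these data known. Named are the list members, the 10 most abundant, the 6 largest called changes in each direction of each comparison with at least 5 TPM in the higher group and ranges that do not overlap (for the interaction the adjusted p alone), and the 3 genes on each side of the level threshold. Libraries held 13520906 to 19068323 counts, and counting intervals cover counting error only. Replicate numbers were not taken as pairs. The result of 1 listed gene is not reported here.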

Additional observations from a re-analysis of the deposited data

Results flagged for a closer look

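The response to Zfp143 siRNA differed between induced and uninduced cells for 37 of the named genes by the test of the interaction, given here as the log2 fold change in induced cells minus that in uninduced cells (edgeR adjusted p under 0.05). Genes were named partly for a large called interaction, so this number is not a share to set against all genes. Of the 536 tested members 31 (5.78%) were higher and 84 (15.7%) lower. The nuclear RNAs Neat1 (0.80), Firre (1.18) and Xist (1.22) had positive values. The snoRNA hosts Snhg12 (-1.19), Snhg6 (-0.84), Snhg16 (-1.04), Snhg15 (-0.74) and Snhg18 (-1.33) and the growth-linked Norad (-0.67) had negative ones. Of the microRNA hosts, Mir100hg was at -1.06 and Mir17hg at 1.09. Of the 19 opposite-strand genes 5 were called, all negative: Junos at -1.47, Rab26os at -2.18, Ptgs2os2 at -2.26, Rab10os at -1.33 and Rab11bos1 at -1.51. Of all tested genes 10.6% were higher and 11.8% lower for the interaction. Without both libraries that stand apart 3 of the 19 were called higher and 5 lower. Hotair was at 0.68 and Lncppara at 1.72. The call on Norad was lost in 7 of the 12 fits that left out 1 library (adjusted p between 0.054 and 0.095). It held without induced Zfp143 siRNA replicates 2 and 3, uninduced Zfp143 siRNA replicate 1 and uninduced control siRNA replicates 1 and 3. The call on Hotair was lost in 11 of the 12 fits that left out 1 library (adjusted p between 0.052 and 0.14). It held without uninduced control siRNA replicate 3.

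Among clone-named genes, positive values were seen for Gm21748 (8.20), Gm72413 (3.07), Gm59180 (3.02), Gm53778 (2.61), Gm67261 (2.14), Gm59022 (2.02), Gm46620 (1.12) and 2700099C18Rik (1.05). The call on Gm72413 was lost without any 1 of uninduced Zfp143 siRNA replicates 2 and 3 (adjusted p between 0.05 and 0.061). The call on Gm59180 was lost without any 1 of induced Zfp143 siRNA replicate 3, induced control siRNA replicates 1 and 2, uninduced Zfp143 siRNA replicate 1 and uninduced control siRNA replicate 2 (adjusted p between 0.052 and 0.089). The call on Gm59022 was lost in 7 of the 12 fits that left out 1 library (adjusted p between 0.051 and 0.083). It held without induced Zfp143 siRNA replicates 1 and 2, induced control siRNA replicate 1, uninduced Zfp143 siRNA replicate 3 and uninduced control siRNA replicate 3. The call on 2700099C18Rik was lost without induced control siRNA replicate 2 (adjusted p = 0.052). Negative values were seen for Gm62060 (-5.66), Gm71785 (-5.25), Gm38534 (-4.90), Gm35113 (-4.77), 5430431A17Rik (-4.17), Gm60322 (-3.59), BC062258 (-3.03), Gm57414 (-2.94), G530011O06Riky (-2.52), Gm63125 (-2.25) and Gm73429 (-2.07). The call on Gm71785 was lost without any 1 of induced Zfp143 siRNA replicates 1 and 3, induced control siRNA replicate 2, uninduced Zfp143 siRNA replicates 2 and 3 and uninduced control siRNA replicate 2 (adjusted p between 0.052 and 0.87). The call on Gm38534 was lost without uninduced Zfp143 siRNA replicate 2 (adjusted p = 0.24). The call on 5430431A17Rik was lost in 11 of the 12 fits that left out 1 library (adjusted p between 0.057 and 0.3). It held without uninduced Zfp143 siRNA replicate 3. The call on G530011O06Riky was lost without uninduced Zfp143 siRNA replicate 1 (adjusted p = 0.24). The call on Gm63125 was lost without any 1 of induced control siRNA replicates 1 and 3 and uninduced Zfp143 siRNA replicate 1 (adjusted p between 0.06 and 0.063). The uninduced control libraries had no counts of Gm62060 and 5430431A17Rik, 1 of Gm38534 and 3 of Gm60322. Gm21748 had 2.22 counts in the induced control libraries and Gm71785 had 2.42 in the induced Zfp143 siRNA libraries. The fitted values of these genes depend on the prior count and are no bounds. That of Gm71785 ran from -7.86 to -1.78 with 1 library left out.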

How the results depend on the processing

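No named call reversed: of 255 called results, 5009 of 5305 alternative values kept the call and direction and 296 lost it, in 56 results, while 61 of 235 results without a call gained one. Counts of called members moved by over 1.5 times in these cases. Taking members by a mean of 10 TPM in a group gave 70 higher and 36 lower for the siRNA in uninduced cells, 108 higher for induction with control siRNA, 104 higher with Zfp143 siRNA and 19 higher for the interaction; by a mean of 5 TPM over all libraries, 17 lower for the siRNA in induced cells and 121 higher for induction with Zfp143 siRNA. These settings hold fewer genes. Without both libraries that stand apart, 33 members were higher for the siRNA in induced cells (all 15 shared) and 61 for the interaction (all 31 shared); the cause was not tested.

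With 1 library left out, the siRNA in uninduced cells gave 87 to 129 higher and 39 to 64 lower, the siRNA in induced cells 7 to 21 and 16 to 31, induction with control siRNA 180 to 198 and 120 to 145, induction with Zfp143 siRNA 166 to 203 and 130 to 152, and the interaction 19 to 46 and 67 to 108. Scaling by library size alone moved the median of all genes to 0.35 from 0.10 for induction with Zfp143 siRNA and to 0.21 from 0.03 with control siRNA; changes are relative to such shifts. Same-numbered libraries correlated between -0.0963 and 0.306 and others between -0.279 and 0.249, so numbers were not taken as pairs; a replicate block gave 115 higher and 61 lower for the siRNA in uninduced cells, 15 and 25 in induced cells, 195 and 140 for induction with control siRNA, 188 and 149 with Zfp143 siRNA, and 32 and 84 for the interaction. Calls on Oip5os1 and Gas5 for the siRNA in uninduced cells were among those lost with a length offset. Depth limits genes near 5 TPM and short genes most.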
